A study of Homo sapiens with 12 samples.

Results

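The data cover 31 genes of glycolysis among the 28008 genes of the count table of each of QGP-1 and BON-1, 2 established human cell lines that come from pancreatic neuroendocrine tumors (pNETs). The genes were picked by symbol and hold 3 glucose transporters, 26 enzymes and 2 lactate transporters. Each line carries a tet-MUC1shRNA, a short hairpin RNA against MUC1 in a puromycin-selected vector that doxycycline (DOX) switches on. Both lines received DOX at 500 ng/ml or vehicle, which was 0.1% DMSO, over 7 days, and each of the 4 groups has 3 libraries. Libraries of cells with a control hairpin and DOX were not analysed here, so an effect of DOX itself cannot be told apart from that of the hairpin. QGP-1 cells grew in RPMI medium and BON-1 cells in DMEM/F-12, so that line, medium and library batch cannot be told apart either, and each line stands for 1 selected culture with 1 hairpin. The cultures are described as triplicates, and p-values measure the spread between them.

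Glycolysis converts glucose to pyruvate, and many tumor cells turn much of that pyruvate into lactate and export it. Glucose enters through facilitative transporters, is trapped by hexokinases, is committed to the pathway by phosphofructokinases and is cleaved by aldolase into triose phosphates. GAPDH oxidizes these, and PGK1, phosphoglycerate mutase, enolase and pyruvate kinase carry the carbon on to pyruvate, which lactate dehydrogenase reduces to lactate. Many steps are served by isoenzymes from separate genes that differ between tissues. HIF1A and MYC are among the transcription factors known to act on the promoters of glycolysis genes.

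Totals ran from 38224144 to 50525926 counts per QGP-1 library and from 15981954 to 28484324 per BON-1 library. MUC1 transcripts were lower in each of the DOX libraries than in any vehicle library of the same line (log2 fold change -2.91 in QGP-1 and -2.79 in BON-1). Of 10 neuroendocrine markers, 9 reached a mean of 1 CPM (TMM-normalised counts scaled to a common library total) in each group, NEUROD1 being the one below it in QGP-1 and NCAM1 in BON-1, and all 4 epithelial markers did. The neuroendocrine sum fell in BON-1, from 11478 to 14850 CPM with vehicle to 9178 to 9636 CPM with DOX. It rose in QGP-1, from 4378 to 5102.5 CPM to 5150 to 5842 CPM. The markers did not move together in BON-1. There CHGA fell, with 9328, 6535 and 8449 CPM with vehicle and 2973, 3130 and 2705 CPM with DOX. SYP was also lower (log2 fold change -0.34), whereas SCG2 (0.45) and SCG3 (0.27) were higher (adjusted p below 0.05, edgeR). CHGB, INSM1, UCHL1, SCG5 and NEUROD1 did not pass there. The epithelial sum rose in BON-1, from 2223 to 2560 CPM to 2810 to 3338 CPM. In QGP-1 it fell, from 2017 to 2149 CPM to 1997 to 2009 CPM. The BON-1 rise was in KRT8 (log2 fold change 0.62) and KRT18 (0.58), while EPCAM (-0.031) and CDH1 (-0.12) did not pass. Markers of leukocytes, fibroblasts, endothelium and acinar cells were mostly below 1 CPM, with 18 markers in these 4 lists. The exceptions were PRSS1, LYZ and CD68 in both lines, COL1A1 in QGP-1, and LUM and KDR in BON-1. The summed leukocyte markers went from 26.2 to 28.2 CPM with vehicle to 51.7 to 57.4 CPM with DOX in BON-1, and from 10.5 to 12.9 CPM to 16.9 to 21.0 CPM in QGP-1. CD68 made up most of the BON-1 sum, with 26.3, 25.8 and 23.7 CPM with vehicle and 52.6, 50.8 and 48.5 CPM with DOX. The acinar sum, nearly all PRSS1, went from 82.6 to 151 CPM with vehicle to 28.9 to 40.0 CPM with DOX in QGP-1, and from 36.0 to 45.9 CPM to 19.6 to 27.0 CPM in BON-1. The fibroblast sum went from 4.83 to 6.43 CPM to 10.2 to 11.6 CPM in BON-1 and from 1.81 to 3.59 CPM to 1.14 to 1.32 CPM in QGP-1, and the endothelial sums overlapped. The part of these markers in the results was not tested.

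Promoter windows are shown for a few of the genes whose transcripts moved, since the E-box CACGTG is the site to which MYC and other basic helix-loop-helix factors bind. Each is the 250 bases before a transcription start in the RefSeq table of GRCh38.p14, written 5′ to 3′ on the strand of the gene, with every CACGTG in capitals. The window of the first LDHA start (chr11:18394313-18394562, plus strand) and that of the second HK2 start (chr2:74834920-74835169, plus strand) hold 2 copies each, while GAPDH (chr12:6535014-6535263, plus strand) and the second PFKFB3 start (chr10:6202682-6202931, plus strand) hold 1 each. ENO1 (chr1:8878687-8878936, minus strand) holds none, and neither do the windows of the second LDHA start, the first HK2 start and the first PFKFB3 start, which are not shown. PGAM1, PGK1 and TPI1, which were also lower in both lines, hold none in their windows. The windows shown are therefore not typical of the members, most of which hold no CACGTG. A link between the motif and the changes was not tested.
LDHA: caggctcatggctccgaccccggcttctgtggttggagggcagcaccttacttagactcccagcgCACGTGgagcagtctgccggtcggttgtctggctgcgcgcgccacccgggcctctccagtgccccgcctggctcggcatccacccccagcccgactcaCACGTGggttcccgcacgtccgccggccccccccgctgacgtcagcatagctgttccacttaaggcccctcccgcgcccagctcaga
HK2: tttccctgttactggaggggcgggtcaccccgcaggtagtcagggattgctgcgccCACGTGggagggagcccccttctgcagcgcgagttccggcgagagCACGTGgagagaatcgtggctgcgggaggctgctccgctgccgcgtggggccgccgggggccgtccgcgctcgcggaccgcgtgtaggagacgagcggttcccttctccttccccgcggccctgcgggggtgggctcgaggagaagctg
GAPDH: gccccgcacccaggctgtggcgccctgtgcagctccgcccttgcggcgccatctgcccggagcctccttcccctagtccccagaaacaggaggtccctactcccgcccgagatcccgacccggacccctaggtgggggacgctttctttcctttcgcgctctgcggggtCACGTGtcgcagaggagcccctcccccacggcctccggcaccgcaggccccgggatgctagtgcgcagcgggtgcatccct
PFKFB3: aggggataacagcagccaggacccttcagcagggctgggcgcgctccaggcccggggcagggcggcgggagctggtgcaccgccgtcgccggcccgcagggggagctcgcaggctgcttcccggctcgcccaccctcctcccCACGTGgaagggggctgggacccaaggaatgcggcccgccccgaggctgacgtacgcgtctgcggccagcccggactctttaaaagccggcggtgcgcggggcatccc
ENO1: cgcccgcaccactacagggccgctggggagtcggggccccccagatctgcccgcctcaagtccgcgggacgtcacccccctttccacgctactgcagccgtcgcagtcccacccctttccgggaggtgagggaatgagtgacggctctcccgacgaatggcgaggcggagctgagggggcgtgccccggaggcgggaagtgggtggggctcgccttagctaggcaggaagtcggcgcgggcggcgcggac
CACGTG reads the same on both strands and stood in the windows of 7 of the 28 members with an entry in the table, which were ALDOA, ALDOC, GAPDH, HK2, LDHA, PFKFB3 and PKLR. The share over all 27305 genes with an entry was 7.73%, and it was 10.8% over those that were tested for expression. The shorter ACGTG, which is part of CACGTG and is the core of the HIF site, was found on either strand in 16 of the 28 members, against 21.7% of all genes and 28.2% of those tested. The other form of that core, GCGTG, was in 14 of the 28, against 36.2% and 51.2%. A gene was counted if any of its windows held the motif, so genes with several windows, such as HK1 and PFKM, had more openings. The number of windows was not matched between members and all genes, so their shares are not strictly comparable. Over all 35116 windows the shares were 6.34% for CACGTG, 18.5% for ACGTG and 32.2% for GCGTG. These are matches of letters in short windows. SLC2A3, SLC16A1 and PFKFB2 had no entry.

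The vehicle libraries show which isoenzymes the lines use. Levels between genes are compared per gene length, as TPM rescaled after leaving out 3 abundant small nuclear and cytoplasmic RNAs, and are given as the mean ± SD of 3 vehicle libraries. GAPDH was the most abundant of the 31 genes, with 4099 ± 271 rescaled TPM in QGP-1 and 5533 ± 523 in BON-1. In QGP-1 it was followed by LDHA with 622 ± 7.73, TPI1 with 540.2 ± 40.7, ALDOA with 513 ± 62.4 and PKM with 429 ± 50.6, and TPI1 and ALDOA lie within each other's spread. The order in BON-1 was ALDOA with 792 ± 61.6, PKM with 694 ± 34.9, LDHA with 472 ± 23.1, and then TPI1 with 398 ± 19.1 and ENO1 with 397 ± 35.0, which lie within each other's spread. At the entry of the pathway, the ubiquitous glucose transporter SLC2A1 (GLUT1) reached 44.01 ± 5.09 in QGP-1 and 45.9 ± 1.48 in BON-1, which lie within each other's spread on this scale, whereas on TMM-normalised counts SLC2A1 was lower in BON-1 with vehicle (log2 difference -0.29, adjusted p = 0.00288, edgeR). PFKP was the main phosphofructokinase in both lines, with 85.5 ± 14.3 and 80.3 ± 4.90, above PFKM with 33.1 ± 2.80 and 21.8 ± 0.529 and PFKL with 18.4 ± 3.89 and 17.2 ± 0.365.

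**Figure D1:**
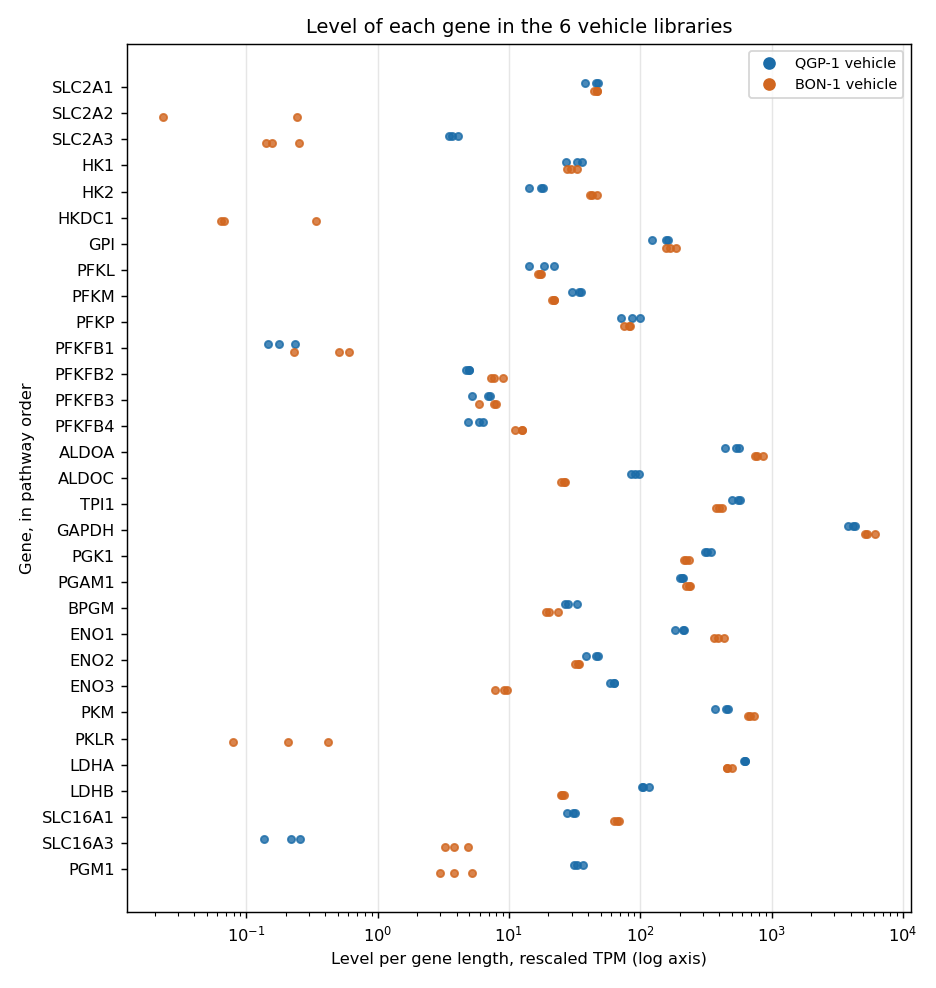
Level per gene length of the 31 genes in the 3 vehicle libraries of QGP-1 (blue) and of BON-1 (orange), as rescaled TPM on a log axis, with genes in pathway order. Each point is 1 library, and libraries at 0 have no point (SLC2A2, HKDC1 and PKLR in QGP-1, and 1 BON-1 library for SLC2A2). GAPDH lies highest in both lines, and SLC2A3, ENO3, LDHB, ALDOC, PGM1, HK2 and SLC16A3 differ visibly between them.

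SLC2A2, HKDC1, PKLR and PFKFB1 were absent or nearly so. SLC2A2 (GLUT2), the transporter of liver and beta cells, was at 0 in all 6 QGP-1 libraries, where a count of 0 allows a level of up to 0.0594 to 0.0785 CPM (3 counts of the library's total, counting error only), and at most 0.355 CPM in BON-1. HKDC1, PKLR (the liver and red-cell pyruvate kinase) and PFKFB1 (the liver PFK-2) stayed below 1 CPM as group means in both lines.

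Of 29 members in the fit over 12 libraries, 25 differed between the vehicle libraries of the lines, 16 lower and 9 higher in BON-1 (edgeR quasi-likelihood test, adjusted p below 0.05), against a background of 74.9% of all genes tested (37.5% lower and 37.5% higher). The 25 include PKLR, SLC2A3 and SLC16A3. With vehicle, PKLR had 0 counts in every QGP-1 library and 17, 5 and 22 in BON-1. SLC2A3 had 7, 6 and 8 counts in BON-1, and SLC16A3 had 12, 12 and 9 in QGP-1. These genes passed the count filter through the other line, so their directions followed from the filter and their folds are rough. The sizes varied widely, and they are given here as linear folds of TMM-normalised counts. SLC2A3 (GLUT3), the neuronal glucose transporter, was lower in BON-1 by 26.8-fold, with 3.75 ± 0.310 rescaled TPM in QGP-1 against 0.183 ± 0.0603 in BON-1. PGM1, which joins glycolysis to glycogen, was 10.7-fold lower, ENO3, the muscle-type enolase, 8.96-fold, LDHB, the heart-type lactate dehydrogenase subunit, 5.46-fold, and ALDOC, the brain-type aldolase, 4.48-fold. SLC16A3 (MCT4), the lactate exporter of highly glycolytic cells, was 15.3-fold higher in BON-1 although low in both, and HK2, the inducible hexokinase, was 2.06-fold higher.

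With DOX, which switches on the MUC1 hairpin, levels were lower for 13 of the 26 members tested in QGP-1 cells and for 10 of 26 in BON-1 cells. In QGP-1 the background of all genes called lower was 17.7%, and in BON-1 it was 18.3%, so that the members' shares of 50.0% and 38.5% lay above it. Higher levels were found for 4 members in QGP-1 and 3 in BON-1, which is near the background of 17.3% and 17% of all genes. The other 9 members tested in QGP-1 and 13 in BON-1 did not pass. SLC2A2, HKDC1, PFKFB1 and PKLR had too few counts for a test in either line, as had SLC16A3 in QGP-1 and SLC2A3 in BON-1. The median log2 fold change of the members tested was -0.29 in QGP-1 and -0.22 in BON-1, beside -0.012 and -0.010 for all genes. LDHA, ENO1, ALDOA and TPI1 are in gene lists that the study drew from these libraries, so that they are no independent evidence of direction. The groups did not overlap, with DOX lower, for 13 members in QGP-1 and 13 in BON-1, against a background of 23.2% and 23.9% of genes, and with DOX higher for 4 and 3, against 23.5% and 22.4%. In bulk cultures less RNA per cell and fewer cells that express a gene cannot be told apart.

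These directions rest on TMM scaling, under which the median of all genes does not move. On the TPM scale the median of all genes in QGP-1 was higher with DOX by 0.59 as deposited and by 0.29 after rescaling, and the deposited TPM called 1 member lower and 16 higher in QGP-1. Relative to that shift, with each rescaled library centred on its median, 13 members were lower and 3 higher in QGP-1, and 9 lower and 3 higher in BON-1. Requiring a log2 change of at least 0.5 left 8 lower and 1 higher in QGP-1 and 5 lower and 1 higher in BON-1.

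**Figure D2:**
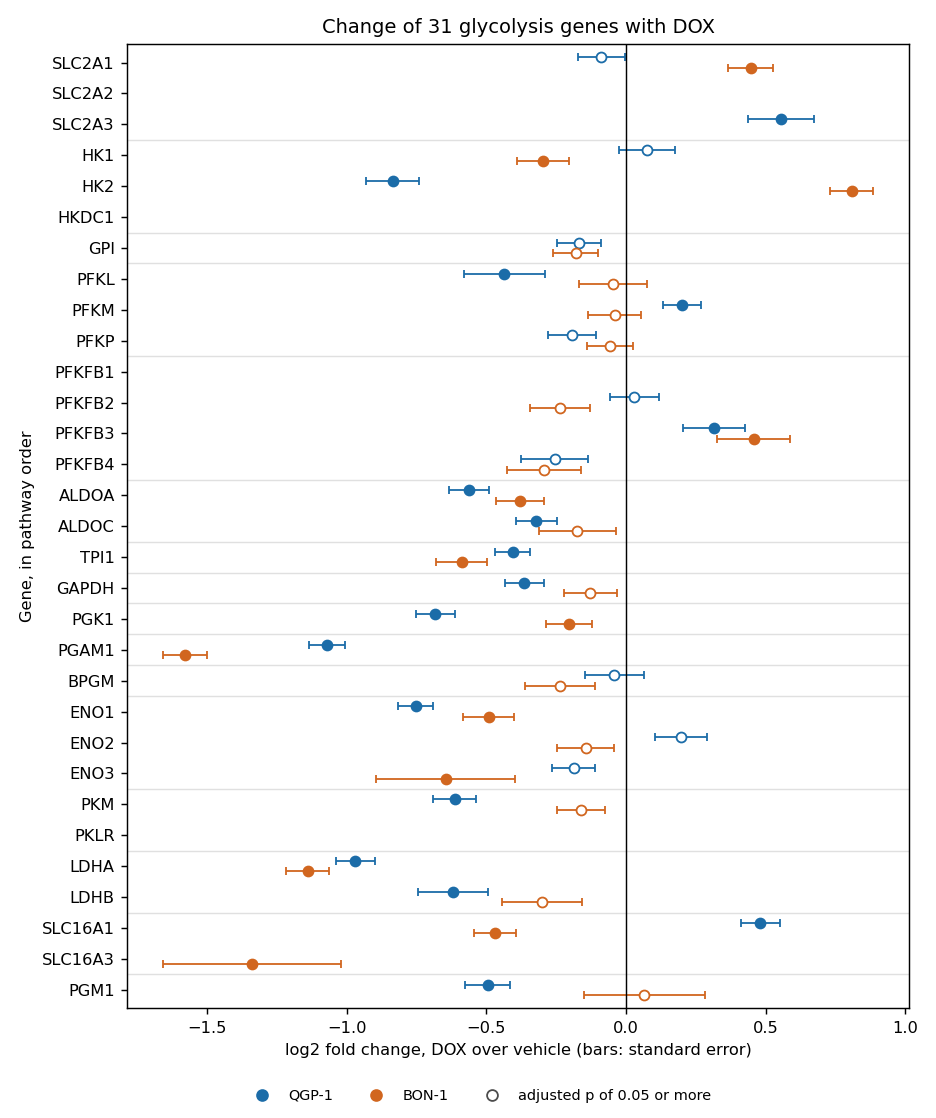
Log2 fold change of each gene, DOX over vehicle, by edgeR on TMM-normalised counts in QGP-1 (blue) and BON-1 (orange), in pathway order with gray lines between steps. Bars are standard errors from 3 against 3 libraries, filled points have an adjusted p below 0.05, and genes without a point were not tested. The steps from GAPDH to lactate dehydrogenase lie left of 0 in both lines except ENO2 in QGP-1, while HK2 and SLC16A1 lie on opposite sides in the 2 lines; on the deposited TPM scale GAPDH, PGK1, PKM, LDHB and ENO3 turn to the right in QGP-1.

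The steps from glyceraldehyde phosphate to lactate gave no call of a higher level. Of their 9 members tested, 7 were lower and 0 higher in QGP-1 (median log2 fold change -0.62), and 5 were lower and 0 higher in BON-1 (median -0.30), against 17.7% and 18.3% of all genes lower. The 5 in BON-1 include PGK1 and ENO3, whose calls were each lost in 5 of the 6 fits without 1 library. The 2 members of the 9 that did not pass in QGP-1 were ENO2 and ENO3, and ENO2 is the one with a positive log2 fold change of 0.20. From glucose entry to triose phosphate, 5 members were lower and 2 higher of 11 tested in QGP-1, and 3 lower and 2 higher of 10 in BON-1, with medians of -0.19 and -0.12, against 17.7% lower and 17.3% higher of all genes in QGP-1 and 18.3% and 17% in BON-1.

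Lower in both lines were ALDOA, TPI1, PGK1, PGAM1, ENO1 and LDHA, 6 of the 25 members tested in both, against a background of 7.23% of genes lower in both. Only PFKFB3 was higher in both, against 6.88%, and HK2 and SLC16A1 changed in opposite directions, against 2.69%. Neither line gave a call for GPI, PFKP, ENO2, PFKFB2, PFKFB4 or BPGM.

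PGAM1 (phosphoglycerate mutase, chr10:97426191-97433444 in GRCh38) had the most negative log2 fold change of the members tested in both lines. It stood at 213, 223 and 221 CPM with vehicle and 108, 101 and 103 CPM with DOX in QGP-1. BON-1 libraries gave 209, 203 and 197 CPM with vehicle and 71.8, 67.6 and 64.2 CPM with DOX. The groups lay far apart in each line, with every DOX library below every vehicle library. The log2 fold change was -1.07 ± 0.065 (SE) in QGP-1 and -1.58 ± 0.078 in BON-1, with adjusted p = 1.28e-07 and 5.1e-15 by edgeR. PGAM1 has 13 annotated pseudogenes, and its near-identical retrocopy PGAM4 also has a row, with log2 fold changes of -1.42 and -1.18. How reads that match several copies were counted is not given in the sources used here, so part of the PGAM1 signal is uncertain.

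LDHA (chr11:18394560-18408425), the muscle-type subunit of lactate dehydrogenase that favours lactate formation, was measured at 798, 811 and 839 CPM with vehicle and 452, 390.3 and 406 CPM with DOX in QGP-1. In BON-1 the values were 548, 478 and 504 CPM with vehicle and 238, 227 and 229 CPM with DOX. Neither line showed overlap between groups, and the log2 fold changes were -0.97 (adjusted p = 4.31e-07) and -1.14 (adjusted p = 3.41e-12, edgeR). LDHB gave 77.4, 77.0 and 91.4 CPM with vehicle and 66.7, 44.9 and 48.3 CPM with DOX in QGP-1. The fall passed there (log2 fold change -0.62, adjusted p = 0.00172, edgeR). BON-1 held less LDHB, 16.6, 15.0 and 15.9 CPM with vehicle and 14.7, 13.2 and 10.7 CPM with DOX, and the difference did not pass (-0.30, adjusted p = 0.102, edgeR), although the groups did not overlap and it passed without BON-1 DOX library 1 (-0.41, adjusted p = 0.0479).

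ENO1 (chr1:8861000-8879190), the widely expressed enolase, was at 397, 394 and 366 CPM with vehicle and 225, 233 and 228 CPM with DOX in QGP-1. The corresponding BON-1 values were 692, 590.5 and 579.9 CPM with vehicle and 466, 486 and 373 CPM with DOX. The groups were apart in both lines, with log2 fold changes of -0.75 (adjusted p = 1.67e-06) and -0.49 (adjusted p = 0.000111, edgeR). An antisense gene, ENO1-AS1, overlaps it. ENO2, the neuron-specific enolase used as a marker of neuroendocrine tumors, showed 57.0, 56.4 and 50.1 CPM with vehicle and 71.0, 59.2 and 56.9 CPM with DOX in QGP-1, and 35.6, 32.9 and 33.0 CPM with vehicle and 32.7, 31.05 and 28.3 CPM with DOX in BON-1. These overlapped in QGP-1 and did not in BON-1, and neither difference passed (adjusted p = 0.122 and 0.282, edgeR).

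ENO3 was 44.03, 45.0 and 43.6 CPM with vehicle and 39.5, 39.7 and 37.2 CPM with DOX in QGP-1, where the groups did not overlap but the difference missed the threshold (log2 fold change -0.19, adjusted p = 0.0757, edgeR). In BON-1 ENO3 was scarce, 4.72, 5.23 and 5.78 CPM with vehicle and 4.43, 3.48 and 2.19 CPM with DOX. It passed there by a small margin (-0.65, adjusted p = 0.0448, edgeR). The call was lost without BON-1 vehicle library 1 (log2 fold change -0.72), 2 (-0.65) or 3 (-0.59), without DOX library 2 (-0.69) or 3 (-0.43), and with DESeq2 (adjusted p = 0.0786). ENO3 lies opposite to the abundant PFN1 on the other strand, and whether the counting used strand is not given in the sources used here.

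PGK1, which makes the first ATP of the pathway, had 410.0, 382 and 414 CPM with vehicle and 239.7, 242 and 269.7 CPM with DOX in QGP-1. The groups were well separated (log2 fold change -0.68, adjusted p = 9.17e-06, edgeR). In BON-1 it had 224, 232 and 231 CPM with vehicle and 225, 191 and 181 CPM with DOX. There the highest DOX library lay among the vehicle libraries and the call sat at the threshold (-0.20, adjusted p = 0.0499, edgeR). It was lost without BON-1 vehicle library 1 (-0.22), 2 (-0.20) or 3 (-0.21), without DOX library 2 (-0.19) or 3 (-0.16), with the size factors of DESeq2 in edgeR (adjusted p = 0.0636), and with the replicate number as a block (adjusted p = 0.0559). PGK1 as annotated overlaps ATP7A on the same strand.

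ALDOA, the ubiquitous aldolase, was at 1005, 972 and 852 CPM with vehicle and 646, 646 and 623 CPM with DOX in QGP-1. BON-1 cells had 1330.2, 1135 and 1143 CPM with vehicle and 939, 987 and 845 CPM with DOX. DOX was below vehicle without overlap in both (log2 fold change -0.56, adjusted p = 5.17e-05, and -0.38, adjusted p = 0.000991, edgeR). Its brain-type counterpart ALDOC was at 74.1, 71.8 and 70.2 CPM with vehicle and 59.9, 55.2 and 57.8 CPM with DOX in QGP-1, a fall that passed (-0.32, adjusted p = 0.0037, edgeR). In BON-1 ALDOC was at 17.7, 16.7 and 16.4 CPM with vehicle and 16.9, 16.0 and 12.2 CPM with DOX, with overlap (-0.17, adjusted p = 0.353, edgeR).

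TPI1, which interconverts the triose phosphates, was at 505, 495 and 469 CPM with vehicle and 382, 368 and 358 CPM with DOX in QGP-1. Its values in BON-1 were 318, 287 and 288 CPM with vehicle and 219, 213 and 162 CPM with DOX. Both falls were free of overlap (log2 fold change -0.41, adjusted p = 0.000268, and -0.59, adjusted p = 9.74e-06, edgeR). TPI1 has 4 annotated pseudogenes and lies opposite to SPSB2.

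GAPDH, which oxidizes the triose phosphate and is often used as a reference transcript, fell in QGP-1. Its values there were 3901, 3811 and 3687 CPM with vehicle and 3246, 2809.9 and 2800.0 CPM with DOX. The groups did not overlap (log2 fold change -0.36, adjusted p = 0.00128, edgeR), but GAPDH has 65 annotated pseudogenes that can share its reads. In BON-1 GAPDH was at 4771, 3926 and 4001 CPM with vehicle and 3990.4, 4097 and 3532 CPM with DOX, with overlap, and did not pass (-0.13, adjusted p = 0.311, edgeR).

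PKM, the pyruvate kinase of most tissues, gave 817, 808 and 702 CPM with vehicle and 468, 515 and 537 CPM with DOX in QGP-1. BON-1 gave 1110.3, 999.6 and 999 CPM with vehicle and 939.9, 1006 and 834 CPM with DOX. It fell in QGP-1 without overlap (-0.61, adjusted p = 4.62e-05, edgeR) and overlapped in BON-1 (-0.16, adjusted p = 0.143, edgeR). Gene-level counts do not separate its M1 and M2 splice forms. The remaining mutase, BPGM, which makes 2,3-bisphosphoglycerate, averaged 33.1 CPM with vehicle and 32.2 CPM with DOX in QGP-1, and 19.4 and 16.5 CPM in BON-1, without a call.

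**Figure D3:**
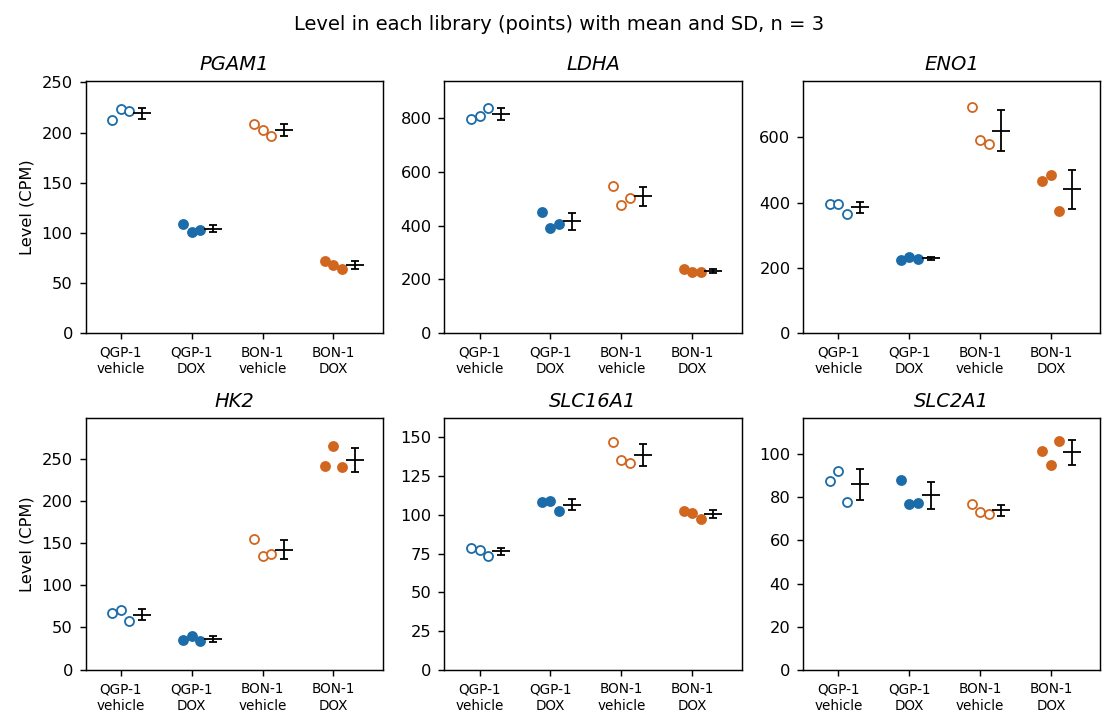
Level of PGAM1, LDHA, ENO1, HK2, SLC16A1 and SLC2A1 in each of the 12 libraries, as TMM-normalised CPM on axes that start at 0, with open points for vehicle and filled points for DOX. Black marks are the mean and SD of 3 libraries. PGAM1, LDHA and ENO1 lie lower with DOX in both lines, HK2 and SLC16A1 cross over between the lines, and SLC2A1 lies higher with DOX in BON-1 alone.

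The entry steps were mixed. SLC2A1 was at 87.8, 92.3 and 78.0 CPM with vehicle and 88.1, 77.0 and 77.6 CPM with DOX in QGP-1, which overlap (-0.088, adjusted p = 0.448, edgeR). In BON-1 it was at 76.8, 73.0 and 72.1 CPM with vehicle and 101, 94.9 and 106 CPM with DOX. All 3 DOX libraries were above the vehicle libraries there (0.45, adjusted p = 7.11e-05, edgeR). SLC2A3 was at 7.53, 8.56 and 7.68 CPM with vehicle and 11.2, 11.9 and 11.8 CPM with DOX in QGP-1, a rise without overlap (0.56, adjusted p = 0.00235, edgeR), and it shares sequence with SLC2A14 and 3 pseudogenes.

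HK2 (chr2:74834127-74893359), which binds mitochondria and is often raised in tumors, moved in opposite directions in the 2 lines. QGP-1 libraries gave 66.7, 70.8 and 58.0 CPM with vehicle and 35.8, 40.1 and 33.7 CPM with DOX. BON-1 libraries gave 155, 134 and 137 CPM with vehicle and 241, 265 and 240.2 CPM with DOX. DOX was below vehicle in QGP-1 and above it in BON-1, with no overlap in either (log2 fold change -0.83 ± 0.095 (SE), adjusted p = 2.11e-05, and 0.81 ± 0.079, adjusted p = 4.85e-09, edgeR). HK1, the constitutive hexokinase, had 85.4, 79.7 and 69.1 CPM with vehicle and 95.0, 78.1 and 73.4 CPM with DOX in QGP-1, with overlap (adjusted p = 0.607, edgeR). It had 67.7, 58.1 and 57.0 CPM with vehicle and 48.2, 54.6 and 46.1 CPM with DOX in BON-1. The BON-1 groups did not overlap and the fall passed (-0.30, adjusted p = 0.0146, edgeR), but not without BON-1 vehicle library 1 (-0.21, adjusted p = 0.108).

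Phosphofructokinase transcripts gave calls in QGP-1 alone, with PFKL lower and PFKM higher. PFKL, the liver-type subunit, was at 38.68, 33.4 and 27.0 CPM with vehicle and 19.2, 28.0 and 26.1 CPM with DOX in QGP-1. Those groups overlap and the fall passed (-0.44, adjusted p = 0.0299, edgeR), but not without QGP-1 vehicle library 1 (-0.31) or 2 (-0.43) or DOX library 1 (-0.28), nor with the replicate number as a block (adjusted p = 0.0530). PFKM, the muscle type, rose in QGP-1 by 0.20 on the log2 scale (adjusted p = 0.0354, edgeR). That call was lost without vehicle library 1 (0.23), 2 (0.21) or 3 (0.16) and without DOX library 2 (0.22) or 3 (0.19). PFKP, the platelet type and the most abundant per length, gave no call in either line (-0.19, adjusted p = 0.0998, and -0.059, adjusted p = 0.616, edgeR), and neither did PFKL and PFKM in BON-1 (-0.048 and -0.040). GPI, the isomerase between hexokinase and phosphofructokinase, was -0.17 in QGP-1 and -0.18 in BON-1, and passed in neither (adjusted p = 0.115 and 0.0846, edgeR). Without QGP-1 vehicle library 3, GPI (-0.25, adjusted p = 0.0109) and PFKP (-0.29, adjusted p = 0.00966) were called lower in QGP-1, and GPI passed in BON-1 without a filter (adjusted p = 0.0416) and with scaling by library size (adjusted p = 0.0224, edgeR).

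PFKFB3, the inducible PFK-2 with high kinase activity, was the one member higher in both lines. It was at 18.8, 18.9 and 15.0 CPM with vehicle and 20.2, 22.2 and 23.0 CPM with DOX in QGP-1. BON-1 showed 18.2, 16.9 and 13.5 CPM with vehicle and 24.0, 22.8 and 20.5 CPM with DOX. Neither line had overlap (log2 fold change 0.31, adjusted p = 0.0413, and 0.46, adjusted p = 0.00688, edgeR). In QGP-1 it no longer passed without vehicle library 2 (0.37) or 3 (0.21) or DOX library 2 (0.30) or 3 (0.27), and in BON-1 without vehicle library 3 (0.34, adjusted p = 0.0699). Without any of these 4 QGP-1 libraries, 2 members rather than 4 were called higher in QGP-1. PFKFB2 and PFKFB4, the heart and testis forms, did not pass in either line, with log2 fold changes between -0.30 and 0.030, except that PFKFB2 passed in BON-1 without vehicle library 2 (-0.32) and PFKFB4 without DOX library 2 (-0.47).

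Transcripts of a lactate transporter were the other point of divergence. SLC16A1 (chr1:112911847-112957593), which encodes the widely expressed MCT1, was at 78.4, 77.0 and 73.7 CPM with vehicle and 108, 109 and 103 CPM with DOX in QGP-1. The BON-1 values were 147, 136 and 134 CPM with vehicle and 102, 101 and 97.4 CPM with DOX. All DOX libraries lay above vehicle in QGP-1 (0.48 ± 0.069 (SE), adjusted p = 0.000132) and below it in BON-1 (-0.47 ± 0.076, adjusted p = 1.97e-05, edgeR). The antisense gene SLC16A1-AS1 overlaps it. SLC16A3 was low in BON-1, 3.48, 4.97 and 4.06 CPM with vehicle and 2.25, 1.87 and 0.865 CPM with DOX, and fell without overlap (-1.34 ± 0.32, adjusted p = 0.00151, edgeR).

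PGM1 was at 63.0, 57.7 and 57.7 CPM with vehicle and 42.5, 40.1 and 43.9 CPM with DOX in QGP-1, where it fell (-0.50, adjusted p = 0.000311, edgeR). It was scarce in BON-1, at 5.65, 7.36 and 4.45 CPM with vehicle and 5.52, 7.49 and 5.29 CPM with DOX, without a call (0.065, adjusted p = 0.844, edgeR). The response of PGM1 was not shown to differ between the lines (0.57, SE 0.20, adjusted p = 0.0532 for BON-1 minus QGP-1 by the edgeR interaction test), although it passed with DESeq2 (adjusted p = 0.0281) and without BON-1 vehicle library 2 (0.74) or DOX library 3 (0.65).

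The interaction of line and DOX asks whether a response differs between the lines. It passed for 6 of 29 members, 2 negative and 4 positive, against a background of 16.7% of genes (7.92% negative and 8.8% positive). HK2 differed by 1.65, SE 0.13, adjusted p = 1.76e-09, and SLC16A1 by -0.94, SE 0.10, adjusted p = 6.81e-07, as BON-1 response minus QGP-1 response in log2. For PGAM1 the fall was larger in BON-1 (-0.50, SE 0.099, adjusted p = 0.000982). The falls of PGK1 (0.49, SE 0.11, adjusted p = 0.00318) and PKM (0.46, SE 0.12, adjusted p = 0.00991) were larger in QGP-1, and SLC2A1 rose in BON-1 relative to QGP-1 (0.55, SE 0.12, adjusted p = 0.00232). For LDHA and ENO1 the interaction did not pass (-0.16, SE 0.11, adjusted p = 0.338, and 0.27, SE 0.12, adjusted p = 0.148, edgeR), which does not show that the responses were equal, and that of ENO1 passed without BON-1 DOX library 3 (0.36, adjusted p = 0.0310).

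Shares of isoenzymes within a family do not depend on how a library is scaled, and were taken from per-length levels in each library, over those family members that are among the 31 genes. They were compared over both lines by a two-sided exact permutation test that exchanged DOX and vehicle within each line, for which 0.005 is the smallest p, adjusted over 9 families. Within 1 line the smallest p of such a test is 0.1. In each family 1 share was tested, that of SLC2A1, HK1, PFKL, ALDOA, ENO1, PKM, LDHA, SLC16A1 or PFKFB2. ENO1 made up 66.0, 65.7 and 65.5% with vehicle and 51.3, 54.3 and 55.1% with DOX of enolase transcripts in QGP-1, and 91.1, 90.2 and 89.8% with vehicle and 88.3, 89.5 and 88.3% with DOX in BON-1. The ENO1 share was lower with DOX in all libraries of both lines (mean difference of the lines -6.93 percentage points, exact p = 0.005, adjusted p = 0.015). ENO2 took up 14.6, 14.4 and 13.8% with vehicle and 24.9, 21.2 and 21.1% with DOX in QGP-1, with every DOX library above every vehicle library, while its own level did not pass a test.

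LDHA made up 85.6, 85.9 and 84.2% with vehicle and 79.7, 83.4 and 82.9% with DOX of lactate dehydrogenase transcripts in QGP-1. Its share in BON-1 was 95.0, 94.9 and 94.8% with vehicle and 90.4, 90.9 and 92.5% with DOX. The groups did not overlap in either line, and the mean difference was -3.44 points (exact p = 0.005, adjusted p = 0.015). SLC16A1 rose as a share of the sum of SLC16A1 and SLC16A3 by 1.56 points (exact p = 0.005, adjusted p = 0.015), from values that were above 93% in every library. That sum leaves out SLC16A7 (MCT2), a further monocarboxylate transporter, which is not among the 31 genes and had 16.7 ± 1.07 rescaled TPM with vehicle in QGP-1 and 8.02 ± 0.428 in BON-1. ALDOA fell as a share of the aldolases by 1.35 points (exact p = 0.01, adjusted p = 0.0225), with overlap in BON-1. The ALDOA call was lost without QGP-1 DOX library 1 (-1.25, adjusted p = 0.0563) or 3 (-1.24), and that of SLC16A1 without BON-1 DOX library 3 (1.20, adjusted p = 0.0675).

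For hexokinases the lines went opposite ways. The HK1 share was 67.3, 64.4 and 65.7% with vehicle and 81.0, 75.8 and 77.7% with DOX in QGP-1. In BON-1 it was 41.3, 40.8 and 40.1% with vehicle and 24.3, 24.9 and 23.6% with DOX. HK1 was already the larger share in QGP-1 and HK2 in BON-1 with vehicle, and each line moved further toward its own main form with DOX, without overlap. Over both lines together the HK1 share gave a mean difference of -2.04 points (exact p = 0.63). The other families did not pass either (adjusted p between 0.162 and 0.45), with PKM at or above 99.9% of pyruvate kinase in every library. They were judged on SLC2A1, PFKL, PKM and PFKFB2 alone. The untested PFKFB3 share rose without overlap in both lines (means 37.3% to 44.5% in QGP-1, 25.9% to 37.4% in BON-1). That of PFKFB4 fell without overlap (33.2% to 26.6%, 43.5% to 36.6%). In QGP-1 the untested PFKM share rose (24.3% to 30.2%) and that of PFKP fell (62.3% to 59.2%) without overlap. Both overlapped in BON-1.

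**Figure D4:**
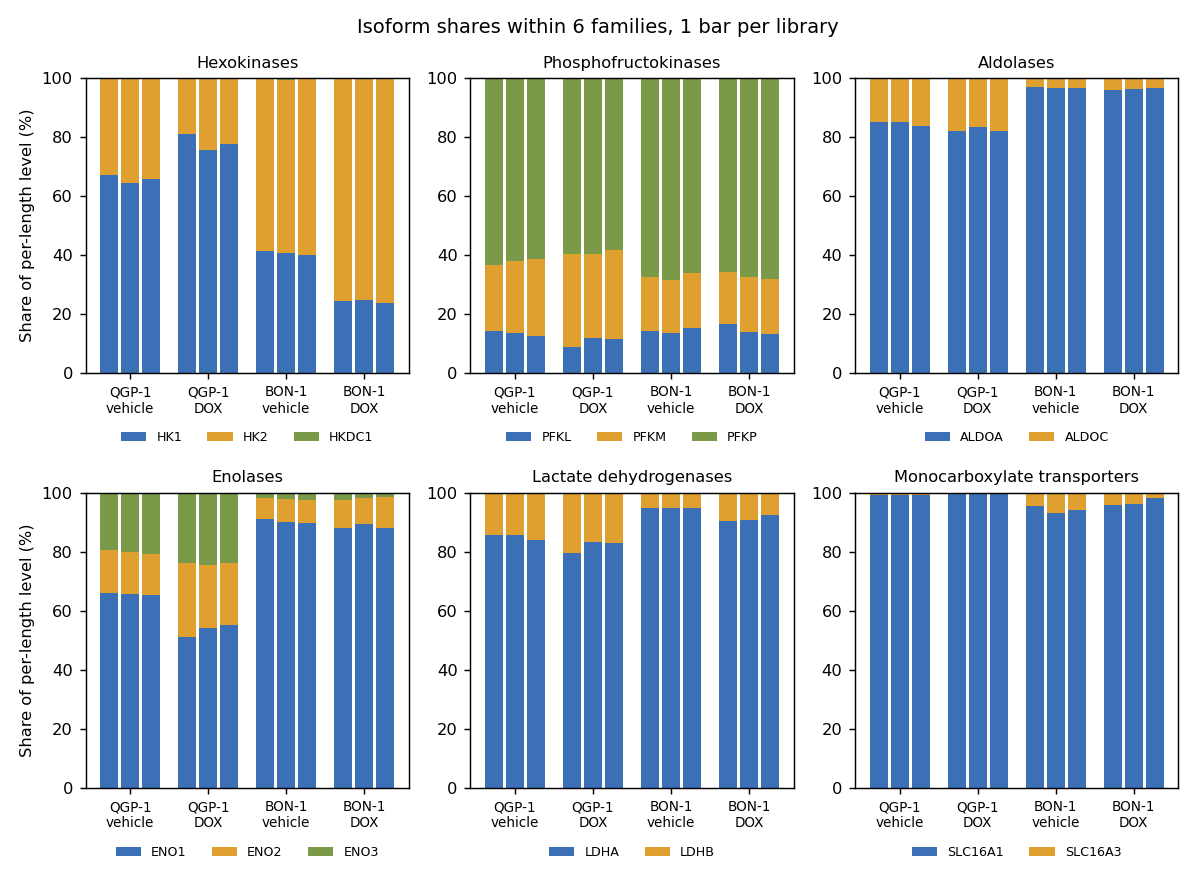
Share of each isoenzyme in the summed per-length level of its family, in percent, for 6 families, with 1 stacked bar per library and 3 libraries per group. The ENO1 and LDHA parts shrink with DOX in both lines, whereas the HK1 part grows in QGP-1 and shrinks in BON-1.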

How the data were processed

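The authors prepared stranded mRNA libraries from total RNA, aligned reads with STAR and deposited, per line, raw counts per gene and TPM values, that is, counts per gene length scaled to a fixed total of 1000000 in each library. The submitters' notes name GRCh38. The counting program and its use of strand are not given in the sources used here. RN7SK, RN7SL1 and RN7SL2 made up 50.9% to 80.3% of the deposited TPM, so TPM was rescaled without them and used only for levels in vehicle, isoenzyme shares and alternatives. The 12 columns were matched to libraries by name.

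Each line's counts went into edgeR 4.0.16 (R 4.3.3, default filter, TMM, quasi-likelihood test) over all genes with Benjamini-Hochberg adjustment and a threshold of 0.05, without a minimum fold change. Both lines were fitted together for the interaction and the vehicle comparison. CPM are TMM-normalised within a line. Replicates differed by more than sampling noise. Depth makes counting error small beside the spread between libraries, except below a few CPM. Alternatives were DESeq2 1.42.0, other size factors and filters, a replicate block, 1 fit of both lines, limma 3.58.1 on log2(TPM + 1) with changes of pseudocount and minimum, a minimum log2 change of 0.5 and leaving out each library. Rescaled TPM centred on each library's median was added after seeing the data. The code was tested on simulated counts. Gene positions, pseudogenes and overlaps come from GENCODE on GRCh38.

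The members, the other gene lists and the marker lists were chosen with earlier results of these data known. Members called in both lines, called in 1 line with an absolute log2 fold change of at least 0.3, or decisive for an isoenzyme share are given per library. Of the other lists, genes called in the same direction in both lines with at least 0.5, or called in opposite directions, are named, with HIF1A, MYC and TXNIP. Genes beyond that rule, where named, were chosen after their values were seen.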

Additional observations from a re-analysis of the deposited data

Results flagged for a closer look

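Among the genes named here, the responses of 10 to DOX differed between the lines in the edgeR interaction test over all 12 libraries. Values are BON-1 response minus QGP-1 response in log2. Of all genes tested 16.7% differed, and the 6 of 29 members are near that share. Those 6 were HK2 (1.65, SE 0.13, adjusted p = 1.76e-09), SLC16A1 (-0.94, SE 0.10, adjusted p = 6.81e-07), SLC2A1 (0.55, SE 0.12, adjusted p = 0.00232), PGK1 (0.49, SE 0.11, adjusted p = 0.00318), PGAM1 (-0.50, SE 0.099, adjusted p = 0.000982) and PKM (0.46, SE 0.12, adjusted p = 0.00991).

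MPC1, PDK1 and PLOD2 were named because they were called in opposite directions in these same libraries. Their interaction calls are therefore no separate evidence of a difference. Among genes next to glycolysis, MPC1, a subunit of the mitochondrial pyruvate carrier, differed by 1.12, SE 0.14, adjusted p = 3.03e-06. In QGP-1 it was at 149.8, 162 and 193 CPM with vehicle and 101, 92.8 and 94.8 CPM with DOX. In BON-1 it was at 58.1, 70.1 and 64.8 CPM with vehicle and 84.1, 70.0 and 83.9 CPM with DOX. It fell without overlap in QGP-1 (-0.81, adjusted p = 1.57e-05) and rose with overlap in BON-1 (0.30, adjusted p = 0.011, edgeR). The BON-1 call was lost without vehicle library 1 (0.23) and without DOX library 1 (0.25) or 3 (0.24).

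PDK1, a kinase that shuts pyruvate dehydrogenase, differed by 1.00, SE 0.13, adjusted p = 6.41e-06. It was at 61.1, 71.9 and 75.4 CPM with vehicle and 46.2, 43.9 and 47.5 CPM with DOX in QGP-1, and at 36.1, 39.1 and 35.5 CPM with vehicle and 50.6, 46.1 and 48.5 CPM with DOX in BON-1. It fell in QGP-1 and rose in BON-1, with no overlap in either.

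PLOD2, a collagen lysyl hydroxylase and a HIF target, differed by 1.02, SE 0.11, adjusted p = 5.68e-07. It fell from 67.6 ± 1.07 CPM with vehicle to 56.6 ± 2.80 CPM with DOX in QGP-1 (mean ± SD, n = 3), and rose from 189 ± 8.85 CPM with vehicle to 317 ± 24.8 CPM with DOX in BON-1. Leaving out vehicle library 2 (-0.25) or DOX library 2 (-0.25) ended the QGP-1 call. TXNIP, a glucose-responsive inhibitor of glucose uptake, rose in both lines, by 0.47 in QGP-1 and 0.95 in BON-1, and the rise was larger in BON-1 (0.49, SE 0.11, adjusted p = 0.00366, edgeR).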

How the results depend on the processing

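The counts of members were close to those reported with DESeq2, its size factors, scaling by library size, no filter and a minimum of 10 counts in every library, with 13 lower and 4 higher in QGP-1, 9 to 13 lower and 3 higher in BON-1, and 6 to 9 different responses. They moved with the TPM scale, where the median of all genes shifts. In QGP-1 deposited TPM called 1 member lower and 16 higher (all genes 91 and 9166), and rescaled TPM 6 and 8 (668 and 6520), also with a pseudocount of 0.1 (660 and 6502). Without a minimum it called 6 lower (605 and 5958). In BON-1 deposited TPM called 3 members lower and 0 higher (all genes 229 and 29, with 1652 at an unadjusted p below 0.05), and 1410, 1387 and 1014 genes were higher on rescaled TPM, with a pseudocount of 0.1 and without a minimum. A minimum log2 change of 0.5 left 8 lower and 1 higher in QGP-1 and 5 and 1 in BON-1, and 1 fit of both lines left 1 higher in QGP-1.

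Directions turned on deposited TPM in QGP-1 for SLC2A1 (0.60), GPI (0.56), PFKL (0.24), PFKP (0.53), PFKFB4 (0.27), ALDOA (0.18), ALDOC (0.40), TPI1 (0.33), GAPDH (0.37), PGK1 (0.053), BPGM (0.62), ENO3 (0.52), PKM (0.12), LDHB (0.098), PGM1 (0.21), SLC16A7 (0.058), PCK2 (0.061), PDK1 (0.12) and PLOD2 (0.42), beside a shift of 0.59 for all genes. They turned in BON-1 for PGM1 (-0.17), MPC1 (-0.063), HIF1A (-0.35) and MYC (-0.048). On rescaled TPM in QGP-1 they turned for SLC2A1 (0.23), GPI (0.16), PFKP (0.14), PFKFB4 (0.056), ALDOC (0.00192), BPGM (0.28), ENO3 (0.13) and PLOD2 (0.064), likewise without a minimum, and with a pseudocount of 0.1 (0.24, 0.16, 0.14, 0.066, 0.00196, 0.29, 0.14 and 0.066). PFKFB2 turned with median centring (-0.011). HIF1A in BON-1 was -0.0305 on rescaled TPM (also without a minimum, and -0.0307 with a pseudocount of 0.1), -0.034 with library size, -0.00861 without a filter and -0.00369 with 10 counts in every library. The HK1 share turned when taken from raw counts (0.609 points). The cause of these changes was not tested beyond the shift of all genes.

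Leaving out each library in turn gave 12 to 15 members lower and 2 to 4 higher in QGP-1, 7 to 11 and 2 to 3 in BON-1, 6 to 8 different responses and 24 to 26 differences with vehicle. Uncalled log2 changes crossed 0 in QGP-1 for HK1 (-0.033 to 0.15), PFKFB2 (-0.017 to 0.057) and BPGM (-0.12 to 0.084), and in BON-1 for PFKL (-0.16 to 0.071), PFKM (-0.15 to 0.013), PGM1 (-0.12 to 0.26) and HIF1A (-0.045 to 0.049). Uncalled differences of response crossed 0 for GPI (-0.088 to 0.083), PFKFB4 (-0.24 to 0.044), MUC1 (-0.28 to 0.38), PGAM4 (-0.098 to 0.48), SLC16A7 (-0.058 to 0.14), PCK2 (-0.17 to 0.088), DDIT4 (-0.14 to 0.40) and MYC (-0.00331 to 0.15), as did the vehicle difference of GAPDH (-0.028 to 0.12).

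Libraries with the same number did not deviate together in each pair (correlations -0.16, 0.32 and 0.25 in QGP-1 and -0.14, -0.10 and 0.19 in BON-1). This gives no clear sign that the numbers pair the libraries, but with 3 libraries a group it cannot exclude a pairing. With the replicate block 12 members were lower and 4 higher in QGP-1, 9 and 3 in BON-1, and 7 responses differed. Sign flips of isoenzyme shares within numbers, as a replicate block, called 0 families in place of 4 (smallest adjusted p = 0.0703, with a smallest possible p of 0.0313 before adjustment). Depth limits the genes under a few CPM, and 3 libraries a group limit all tests.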

Other observations

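Lists of neighbouring genes, written from general knowledge with earlier results of these data known, were counted in the same edgeR fits, in which 17.7% of all genes were lower and 17.3% higher in QGP-1, and 18.3% lower and 17% higher in BON-1. PGD and TALDO1 of the pentose phosphate pathway were lower in both lines. A list of HIF targets, mostly outside glycolysis, had 8 lower and 0 higher of 14 tested in QGP-1, and 3 lower and 5 higher of 17 in BON-1, where ADM, NDRG1, PLOD2, SLC2A1 and MXI1 were the higher ones, of which SLC2A1 is also one of the 31 genes. HIF1A itself was not called (0.16, adjusted p = 0.0558, and 0.010, adjusted p = 0.93, edgeR), although its QGP-1 groups did not overlap and DESeq2 called it there (adjusted p = 0.0318). DDIT4, an inhibitor of mTORC1, was lower in both (-1.34 and -1.20).

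Of 13 genes for entry of pyruvate into mitochondria, 3 were lower and 2 higher in QGP-1, and 1 lower and 5 higher in BON-1, so that the QGP-1 counts lie near the shares of all genes. The pyruvate dehydrogenase kinase PDK3 and the phosphatase PDP1 were higher in both lines. Of the further glycolysis genes, 3 were lower and 2 higher of 14 tested in QGP-1, and 4 lower and 1 higher of 11 in BON-1. Lower in both were ADPGK, an ADP-dependent glucokinase (-0.85 and -1.13), PGAM4, and the monocarboxylate transporter SLC16A7 (-0.67 and -0.60). PGAM4 lost its BON-1 call without vehicle library 1 (-1.22) or 3 (-1.06) or DOX library 1 (-1.19) or 2 (-0.91).

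Gluconeogenesis genes gave 2 lower and 0 higher of 5 tested in QGP-1 and 2 lower and 0 higher of 4 in BON-1, and PCK2, the mitochondrial PEP carboxykinase, was lower in both (-0.66 and -0.72). The glycerol phosphate and glycogen list gave 3 lower and 2 higher of 10 in QGP-1 and 2 of each of 10 in BON-1. Regulators of glycolysis genes gave 4 lower and 5 higher of 16 in QGP-1 and 1 lower and 6 higher of 16 in BON-1. The glucose-sensing factor MLXIPL (ChREBP) fell in both lines (-1.14 and -0.83), while TXNIP, a target of that factor, rose in both. MYC rose by 0.24 (adjusted p = 0.0446) and 0.30 (adjusted p = 0.00657, edgeR). Its QGP-1 call was lost without any of vehicle libraries 1 (0.28), 2 (0.28) and 3 (0.16) and DOX libraries 1 (0.19) and 2 (0.22), and its BON-1 call without vehicle library 2 (0.25) or 3 (0.25). The study, by contrast, reported lower MYC mRNA by qRT-PCR and lower MYC protein by immunoblot in both lines after DOX over 7 days. The reason for this difference was not tested. The 31 genes together took 0.877% to 0.956% of the counts of vehicle libraries and 0.675% to 0.705% of those of DOX libraries in QGP-1, and 0.926% to 1.04% and 0.733% to 0.847% in BON-1.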
